A study of Homo sapiens with 72 samples.

Results

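The aryl hydrocarbon receptor AHR, its partner ARNT, its repressor AHRR and the target genes CYP1A1, CYP1B1 and TIPARP were examined, chosen by name, as 6 of the 60371 genes listed for U2OS cells, an established human osteosarcoma line. Population RNA-seq had been made from 72 wells collected after 12 h: 18 wells with the solvent DMSO alone, and, for 6 compounds given at 100, 1000 and 10000 nM, 3 wells per dose. The compounds were pyrazolanthrone, nilotinib, miglitol, MK-2206, triptolide and homoharringtonine. All groups shared this 1 cell line, and nothing in the labels said whether the wells of a group came from separate cultures, so that p-values measure only the spread between these wells, which may be technical.

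AHR is a transcription factor of the bHLH-PAS family that waits in the cytosol in a complex with the chaperone HSP90. When a planar aromatic ligand binds, AHR enters the nucleus, pairs with ARNT and binds DNA elements with the core GCGTG, which lie upstream of genes such as CYP1A1, the classical target, whose product oxidises aromatic compounds. AHRR, which competes with AHR for ARNT, and TIPARP, an ADP-ribosyltransferase that turns the receptor down, are themselves induced and close negative feedback loops. Pyrazolanthrone, also called SP600125, is an inhibitor of the JNK kinases that also binds AHR. Nilotinib inhibits the ABL kinase, miglitol intestinal alpha-glucosidases, MK-2206 the AKT kinases, triptolide transcription through TFIIH and homoharringtonine the elongation of translation.

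CYP1A1 did not pass the test with pyrazolanthrone at any of its 3 doses, and the highest of the 9 wells stood at 3.08 CPM (the gene's count scaled to the library total). DMSO wells ran from 1.45 to 3.50 CPM, and to 2.96 CPM without the 1 shallow DMSO library. Nilotinib at 10000 nM raised CYP1A1 3.92-fold, and homoharringtonine raised it by 5.78 to 7.69-fold. Homoharringtonine also raised TIPARP by 5.68 to 12.3-fold, while triptolide lowered TIPARP at every dose. AHR and CYP1B1 were close to 0 in DMSO wells and rose with 10000 nM homoharringtonine.

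The libraries held from 70767 to 68296309 expected counts, with the median at 38369496, and 3 of the 72 were shallow: DMSO replicate 10 with 460014, replicate 2 of 100 nM triptolide with 70767 and replicate 1 of 1000 nM triptolide with 9628355. The mesenchymal genes VIM and SPARC stood at 1842 and 2144 TPM (transcript abundance per length and library total) and COL1A1 at 456 TPM in DMSO wells, RUNX2 and ALPL of the osteoblast lineage were low at 3.91 and 4.08 TPM, and COL1A2, SP7 and BGLAP were at 0.461 TPM or less. Of the markers of other cell types, EPCAM stood at 2.35 TPM and CDH1, PTPRC, CD3E, ALB and PECAM1 at 0.442 TPM or less. In bulk wells, fewer cells and less RNA per cell cannot be told apart.

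The sequences upstream of CYP1A1 and AHRR are shown because they carry the motif that AHR and ARNT are known to bind. In the GRCh38 annotation, AHR (ENSG00000106546) lies at chr7:16916359-17346152 on the plus strand, ARNT (ENSG00000143437) at chr1:150809713-150876708 on the minus strand and AHRR (ENSG00000063438) at chr5:321714-438291 on the plus strand. CYP1A1 (ENSG00000140465) lies at chr15:74719542-74725536 on the minus strand, CYP1B1 (ENSG00000138061) at chr2:38066973-38109902 on the minus strand and TIPARP (ENSG00000163659) at chr3:156673235-156706770 on the plus strand. RefSeq promoter windows of GRCh38.p14, of which the 250 bases before each start were searched on both strands, matched 5 of the 6 genes with 8 windows, and CYP1B1 had no entry. The core GCGTG was found in 4 of these 8 windows, against 32.2% of 35116 windows of all genes. The longer form TNGCGTG, which contains the core, was found in 1 of the 8, the first window of AHRR, against 4.52% of all windows. Both windows below are written 5' to 3' on the gene's strand, and the capitals mark the core GCGTG, 57 bases before the start of CYP1A1 (chr15:74725529-74725778, minus strand) and 30 bases before that of AHRR (chr5:321464-321713, plus strand).
CYP1A1: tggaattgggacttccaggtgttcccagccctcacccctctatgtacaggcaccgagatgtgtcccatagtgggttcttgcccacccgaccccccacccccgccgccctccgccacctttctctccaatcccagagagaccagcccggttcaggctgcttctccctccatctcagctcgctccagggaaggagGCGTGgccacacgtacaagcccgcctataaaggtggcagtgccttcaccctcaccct
AHRR: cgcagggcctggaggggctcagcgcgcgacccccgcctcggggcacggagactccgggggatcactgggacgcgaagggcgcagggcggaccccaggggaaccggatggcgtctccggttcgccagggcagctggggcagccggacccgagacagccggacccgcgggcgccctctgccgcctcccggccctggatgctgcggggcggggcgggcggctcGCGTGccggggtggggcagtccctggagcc

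The known enhancer elements of CYP1A1 lie further from the gene, so the 2000 bases before its start were searched as well. TNGCGTG was found 5 times in this region, at 1385, 1061, 986, 898 and 503 bases before the start, among 11 matches to the core. At least 1 match was held by 28.6% of 35116 regions of the same length, and as many matches or more by 19 of them, 0.0541%. The stretch from 1061 to 812 bases before the start (chr15:74726340-74726589, minus strand, GRCh38) is shown with its 3 matches, on either strand, in capitals. These matches are a description of the sequence and not measured binding sites.
CYP1A1 upstream: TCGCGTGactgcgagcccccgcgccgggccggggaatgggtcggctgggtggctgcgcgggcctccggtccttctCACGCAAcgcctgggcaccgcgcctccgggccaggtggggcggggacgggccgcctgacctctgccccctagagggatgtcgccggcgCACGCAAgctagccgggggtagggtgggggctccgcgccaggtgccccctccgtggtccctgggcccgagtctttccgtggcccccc

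Levels of different genes were compared per length, in TPM. In the 18 DMSO wells ARNT was the highest of the 6 genes at 24.6 ± 3.68 TPM (SD, n = 18), followed by AHRR at 7.56 ± 1.02 TPM, TIPARP at 5.41 ± 3.17 TPM and CYP1A1 at 1.61 ± 1.05 TPM. AHR itself stood at 0.0722 ± 0.0926 TPM and CYP1B1 at 0.0206 ± 0.0337 TPM. ARNT was above AHRR, TIPARP above CYP1A1 and CYP1A1 above AHR in 18 of 18 wells. AHRR was above TIPARP in 15 of 18 wells and AHR above CYP1B1 in 11 of 18, so that these 2 pairs of neighbours overlapped. AHR gave 64 counts of 672043930 over the DMSO wells, with 4 wells at 0, and CYP1B1 gave 11 counts, with 10 wells at 0. Only the 4 genes ARNT, AHRR, CYP1A1 and TIPARP passed the filter on low counts in 17 of the 18 comparisons with DMSO, and all 6 passed in the comparison with 10000 nM homoharringtonine.

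**Figure D1:**
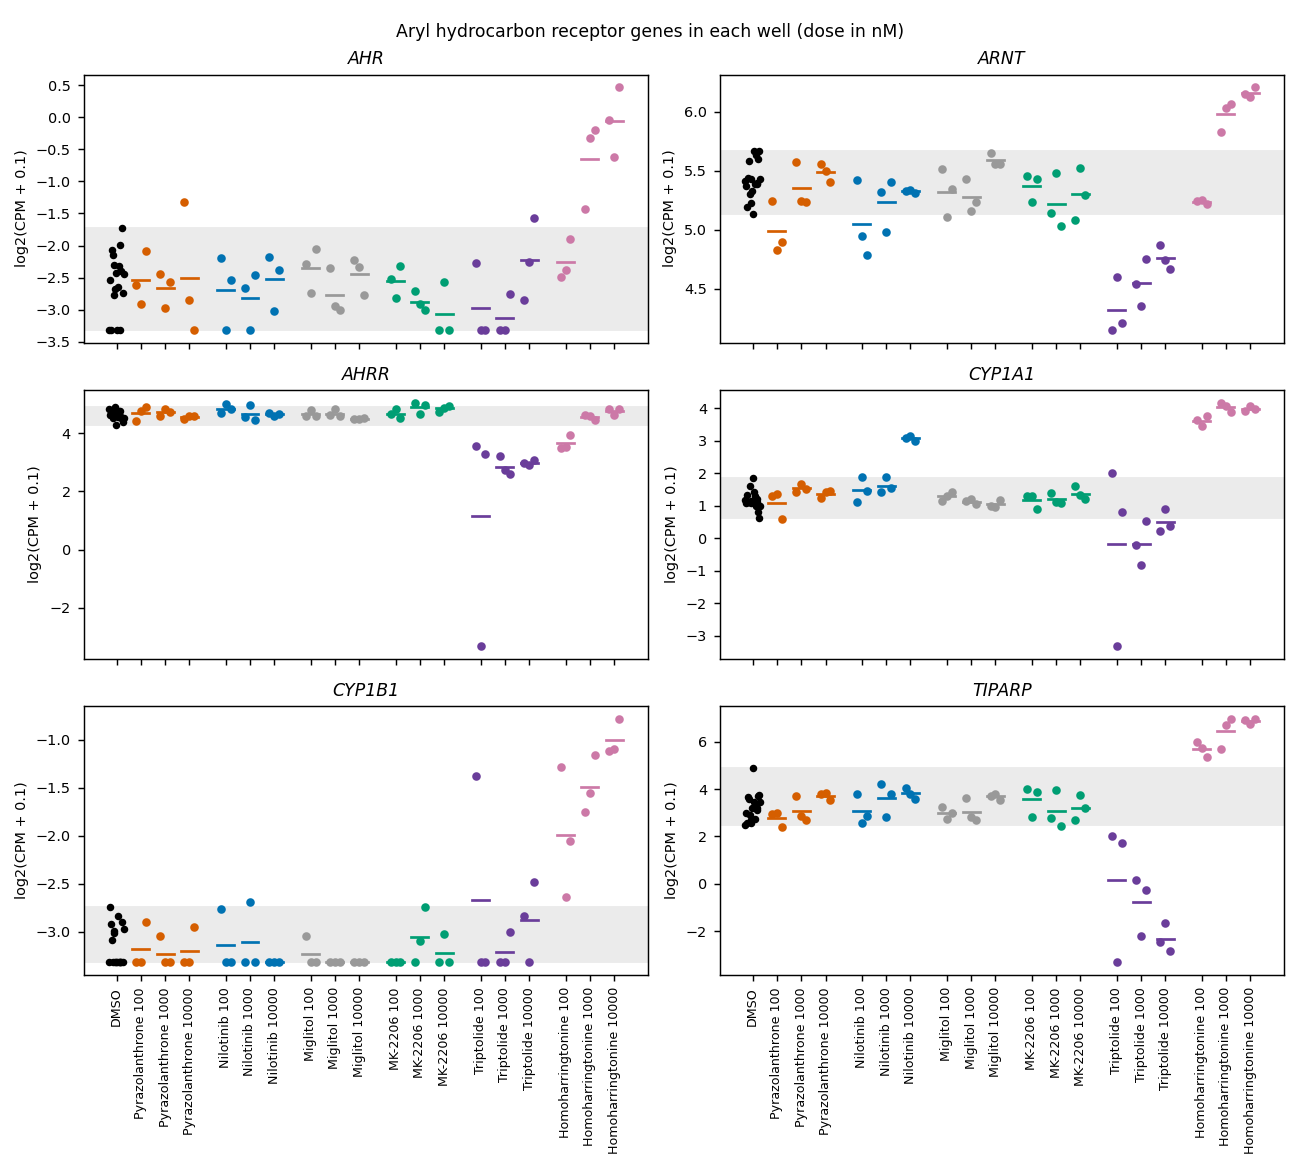
Level of each of the 6 genes in every well, as log2(CPM + 0.1), by compound and dose in nM. Points are wells, bars are means and the grey band is the range of the 18 DMSO wells; the wells with homoharringtonine at 10000 nM stand above the band for AHR, ARNT, CYP1A1, CYP1B1 and TIPARP.

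All wells of a compound and dose were compared with the same 18 DMSO wells by edgeR's quasi-likelihood test, and a gene was called at a Benjamini-Hochberg adjusted p under 0.05 over all genes tested. The 18 comparisons therefore share their controls. Values per well are CPM scaled by TMM factors, and differences are log2(Fold Change) with the standard error (SE). Pyrazolanthrone changed 1 of the 4 genes tested at 100 nM (4.77% of all genes called), 0 at 1000 nM (0.0%) and 0 at 10000 nM (7.65%). Nilotinib changed 1 at 100 nM (9.08%), 0 at 1000 nM (3.95%) and 1 at 10000 nM (14.4%). With miglitol none of the 4 was called at 100, 1000 or 10000 nM (0.0%, 0.0% and 0.0%), and the same held for MK-2206 (0.0648%, 1.52% and 3.15%). Triptolide changed 3, 4 and 4 of the 4 genes, all lower, where 56.8%, 67.4% and 71.8% of all genes were called. Homoharringtonine changed 3, 3 and 3 of the same 4 genes, where 63.4%, 68.4% and 74.0% of all genes were called. AHR and CYP1B1 passed the filter on low counts only with 10000 nM homoharringtonine, through the treated wells, and are therefore left out of this count and tested without the filter below. The counts of 0 called genes over all genes by edgeR stood beside 1033 genes at an unadjusted p under 0.05 with 1000 nM pyrazolanthrone and 944, 1563 and 4195 with the 3 doses of miglitol. DESeq2 called 8 genes in that pyrazolanthrone comparison and 1, 120 and 3 in those of miglitol.

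AHR, the receptor, was near the limit of detection except with homoharringtonine. The DMSO wells ran from 0 to 0.201 CPM with a median of 0.0782 CPM. Pyrazolanthrone wells held 7, 7 and 12 AHR counts in all at 100, 1000 and 10000 nM, and only 1 of the 9 wells, at 0.299 CPM, stood above every DMSO well. Homoharringtonine at 10000 nM gave 0.865, 0.551 and 1.29 CPM, and all 3 wells were above every DMSO well, and in the fit without the filter on low counts the log2(Fold Change) was 3.31 (SE 0.46, edgeR adjusted p = 5.23e-08). At 1000 nM the 3 wells stood at 0.272, 0.697 and 0.773 CPM, also all above DMSO, and the log2(Fold Change) in the same kind of fit was 2.72 (SE 0.50, edgeR adjusted p = 8.31e-06). At 100 nM the wells, from 0.0774 to 0.168 CPM, lay within the DMSO range.

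ARNT, the partner that AHR shares with other bHLH-PAS factors, was readily measured in every group. DMSO wells ran from 35.0 to 50.9 CPM with a median of 42.3 CPM. With 100 nM pyrazolanthrone the wells stood at 37.7, 28.3 and 29.7 CPM, 2 of them below every DMSO well, and the log2(Fold Change) was -0.40 (SE 0.10, edgeR adjusted p = 0.0282). Without replicate 2 or 3 the value was -0.32 and -0.36 and the call was lost (adjusted p = 0.218 and 0.186), in fits that called 34 and 70 genes in all in place of 878. The call was also lost when libraries were scaled to the mitochondrially encoded mRNAs (log2(Fold Change) -0.15, adjusted p = 0.683). At 1000 and 10000 nM pyrazolanthrone, ARNT lay within the DMSO range in all 6 wells. With 100 nM nilotinib the wells stood at 42.8, 30.8 and 27.5 CPM, again 2 of 3 below DMSO, and the log2(Fold Change) of -0.37 (SE 0.11, edgeR adjusted p = 0.0423) was -0.29 and -0.23 and not called without replicate 2 or 3 (adjusted p = 0.325 and 0.44), was not called without the filter (adjusted p = 0.0933) and stood at 0.052 under the mitochondrial scaling.

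Triptolide lowered ARNT at each dose, by 1.25, 0.89 and 0.72 on the log2 scale (edgeR adjusted p = 2.63e-08, 1.38e-07 and 7.41e-07), and all 9 wells, from 17.6 to 29.2 CPM, were below every DMSO well. The median change of all genes was -0.16, -0.21 and -0.17 in these comparisons. Homoharringtonine gave 71.1, 69.7 and 74.2 CPM at 10000 nM and from 56.9 to 67.2 CPM at 1000 nM, all above DMSO, with a log2(Fold Change) of 0.70 and 0.54 (SE 0.09 for both, edgeR adjusted p = 7.98e-08 and 5.66e-06). At 100 nM the value was -0.19 (SE 0.09, edgeR adjusted p = 0.0683), and 7 of the alternative settings called it, at -0.22 to -0.42 and in the same direction. Of these settings, leaving out shallow libraries and leaving out DMSO replicate 10 were the same fit here.

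AHRR, the repressor, was measured from 19.3 to 29.7 CPM in DMSO wells, with a median of 24.4 CPM. With pyrazolanthrone the 3 log2(Fold Change) values were 0.12, 0.11 and -0.10 (SE 0.10 to 0.12, adjusted p = 0.545, 0.975 and 0.552), and 1 of 9 wells lay above the DMSO range, at 30.0 CPM. Their 95% intervals reached from -0.32 to 0.35. AHRR fell with triptolide by 1.23, 1.80 and 1.70 on the log2 scale (edgeR adjusted p = 9.22e-07, 1.53e-10 and 1.12e-11), and all 9 wells lay below DMSO. With homoharringtonine AHRR fell at 100 nM only, to 11.2, 11.6 and 15.3 CPM, a log2(Fold Change) of -0.95 (SE 0.12, edgeR adjusted p = 1.05e-06). At 1000 and 10000 nM homoharringtonine the values were -0.07 and 0.11 (adjusted p = 0.582 and 0.328), with all 6 wells inside the DMSO range. Adding the GC slope described below as a covariate gave 0.40 at 10000 nM (adjusted p = 0.000699).

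CYP1A1, the cytochrome P450 that is read as the standard sign of AHR activity, ran from 1.45 to 3.50 CPM in DMSO wells with a median of 2.08 CPM, and the highest value was that of the shallow library. Without that library the DMSO maximum was 2.96 CPM. Pyrazolanthrone gave 2.38, 2.48 and 1.42 CPM at 100 nM, 2.57, 3.08 and 2.76 CPM at 1000 nM and 2.24, 2.58 and 2.65 CPM at 10000 nM. None of these 9 wells was above the highest DMSO well and 1 was below the lowest. The log2(Fold Change) was 0.01 (SE 0.19) at 100 nM, 0.41 (SE 0.17) at 1000 nM and 0.20 (SE 0.16) at 10000 nM, with adjusted p = 0.973, 0.828 and 0.459 by edgeR. At 1000 nM, where 0 genes were called in all, the unadjusted edgeR p was 0.01845. By that p CYP1A1 stood at place 393 of 18469 genes, and by size of rise at place 575. The 95% interval at 1000 nM reached from 0.07 to 0.75 and that at 10000 nM from -0.14 to 0.53, so that in these fits a rise above 0.75 on the log2 scale lay outside both. Other settings gave wider intervals at 1000 nM. Under the mitochondrial scaling, which moved the median of all genes to 0.33 there, the value was 0.74 (interval 0.11 to 1.365, not called). Blocking on the replicate number, with 3 DMSO wells, gave 0.35 (interval -0.27 to 0.97).

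Nilotinib at 10000 nM gave 8.41, 8.71 and 7.80 CPM of CYP1A1, all above every DMSO well, with a log2(Fold Change) of 1.97 (SE 0.15, edgeR adjusted p = 8.16e-11). By size of rise CYP1A1 stood at place 126 of 18616 genes tested there. The lower doses of nilotinib gave 0.37 and 0.49 (adjusted p = 0.191 and 0.105), with 1 of 3 wells above DMSO at each dose. Leaving out replicate 1 of 100 nM nilotinib gave 0.59 (adjusted p = 0.0305), and the GC slope as a covariate gave 0.57 at 1000 nM (adjusted p = 0.00363). Under the mitochondrial scaling, which moved the median of all genes to -0.68 with 10000 nM nilotinib, CYP1A1 stood at 1.25 (adjusted p = 0.00221).

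The largest CYP1A1 levels of the series were found with homoharringtonine, at 12.3, 10.8 and 13.5 CPM with 100 nM, 17.9, 16.5 and 14.8 CPM with 1000 nM and 14.9, 16.6 and 15.7 CPM with 10000 nM. These 9 wells stood above every DMSO and nilotinib well, and the log2(Fold Change) was 2.53, 2.94 and 2.86 (SE 0.15 for each, edgeR adjusted p = 2.74e-14, 1.06e-15 and 6.08e-16). Miglitol and MK-2206 left all their wells between 1.77 and 2.94 CPM, inside the DMSO range. With triptolide CYP1A1 fell at 1000 nM, by 1.17 on the log2 scale, and at 10000 nM, by 0.70 (edgeR adjusted p = 0.000182 and 0.00244). At 100 nM the wells scattered from 0 to 3.94 CPM, the well at 0 being the shallow one, and the value was 0.45 (adjusted p = 0.111), which became 0.88 (adjusted p = 0.00832) without replicate 3 and -0.35 without replicate 1. CYP1A2, the neighbouring paralog that shares sequence with CYP1A1, had 0.000556 TPM in DMSO wells.

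**Figure D2:**
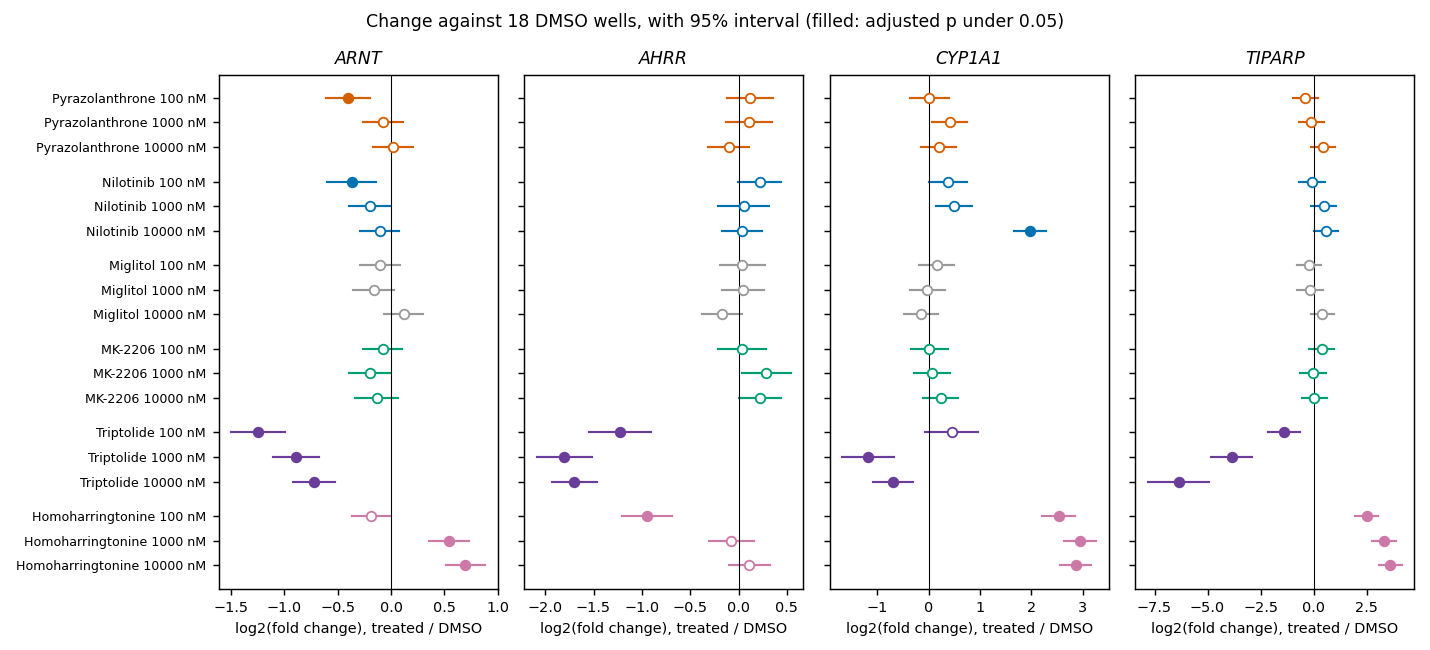
Change of ARNT, AHRR, CYP1A1 and TIPARP against the 18 DMSO wells, as log2(Fold Change) with its 95% interval, for each compound and dose in nM. Filled points passed an adjusted p under 0.05; pyrazolanthrone has 1 filled point, ARNT at 100 nM, while CYP1A1 is filled for 10000 nM nilotinib and all 3 doses of homoharringtonine.

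TIPARP varied more between DMSO wells than the other genes measured at this level, from 5.56 to 29.8 CPM with a median of 9.23 CPM, and the highest value was again that of the shallow library, without which the maximum was 13.5 CPM. With pyrazolanthrone the wells stood at 7.69, 7.96 and 5.16 CPM at 100 nM, 12.8, 7.15 and 6.29 CPM at 1000 nM and 13.7, 14.02 and 11.5 CPM at 10000 nM. The log2(Fold Change) was -0.40, -0.10 and 0.44 (SE 0.29, 0.29 and 0.27, adjusted p = 0.414, 0.98 and 0.315). TIPARP was not called with nilotinib either, at -0.08, 0.47 and 0.59 (adjusted p = 0.909, 0.468 and 0.145). Blocking on the replicate number, with 3 DMSO wells, called TIPARP at 10000 nM with 3 compounds. The values were 1.11 with nilotinib, 0.96 with pyrazolanthrone and 0.96 with miglitol (edgeR adjusted p = 0.00471, 0.0031 and 0.00042). TIPARP values were higher under this block in every comparison, such as 0.11 in place of -0.40 with 100 nM pyrazolanthrone.

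Homoharringtonine raised TIPARP to 64.2, 53.3 and 40.7 CPM at 100 nM, to 52.1, 105 and 126 CPM at 1000 nM and to 120, 107 and 125 CPM at 10000 nM. All 9 wells were above the highest DMSO well, and the log2(Fold Change) was 2.51, 3.33 and 3.62 (SE 0.26, 0.28 and 0.26, edgeR adjusted p = 5.37e-10, 5.25e-12 and 1.27e-13). Triptolide lowered TIPARP by 1.38, 3.87 and 6.36 on the log2 scale (SE 0.37, 0.46 and 0.70, edgeR adjusted p = 0.00417, 8.96e-08 and 1.51e-10). At 10000 nM triptolide the 3 wells held 9 counts in all, from 0.0396 to 0.218 CPM. TIPARP overlaps its antisense gene TIPARP-AS1, and the strand setting of the counting was not given in the sources used here.

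TIPARP levels moved with a property of the libraries. The GC slope of a library was the slope of its log2 levels, relative to the mean of DMSO wells of at least 10000000 counts, on the GC content of the transcripts, per 10 percentage points. Over the 17 DMSO wells of that depth, TIPARP, whose transcripts hold 41.7% GC, correlated with the slope at Pearson r = -0.943 and Spearman rho = -0.946 (both permutation p = 1e-05, the smallest that 100000 permutations can give, and adjusted p = 4e-05 over 4 genes), and r was -0.944 without the 2 wells farthest from the median slope. AHRR, at 59.9% GC, gave r = 0.734 and rho = 0.797 (permutation p = 0.00071 and 0.00023, adjusted p = 0.0014 and 0.00046), and 0.705 without those wells. ARNT gave r = -0.67 and rho = -0.681 (permutation p = 0.0034 and 0.0035, adjusted p = 0.0045 and 0.0046), and -0.538 without them. CYP1A1 gave r = 0.591 and rho = 0.591 (permutation p = 0.012 and 0.015, adjusted p = 0.012 and 0.015) but 0.291 without them, so that its relation rested on these wells.

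The mean GC slope was 0.166, 0.104 and -0.21 with the 3 doses of pyrazolanthrone and -0.263, -0.318 and -0.551 with those of homoharringtonine, and DMSO wells ran from -0.437 to 0.31. The 3 wells with 10000 nM homoharringtonine, at -0.507, -0.501 and -0.646, lay below every DMSO well. The slope was taken from each well's own levels. At that dose the covariate therefore cannot be fully separated from the response to the compound. With the slope as a covariate, added after seeing the data, TIPARP stood at -0.06, 0.09 and 0.14 with pyrazolanthrone and at 2.12, 2.76 and 2.73 with homoharringtonine, still called at all 3 doses of the latter (edgeR adjusted p = 1.36e-13, 9.79e-17 and 4.85e-13). AHR with 10000 nM homoharringtonine, which entered that fit only through the treated wells, stood at 2.05 (SE 0.60). CYP1A1 changed little under the covariate, to 2.71, 3.14 and 3.21 with homoharringtonine and 2.09 with 10000 nM nilotinib.

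**Figure D3:**
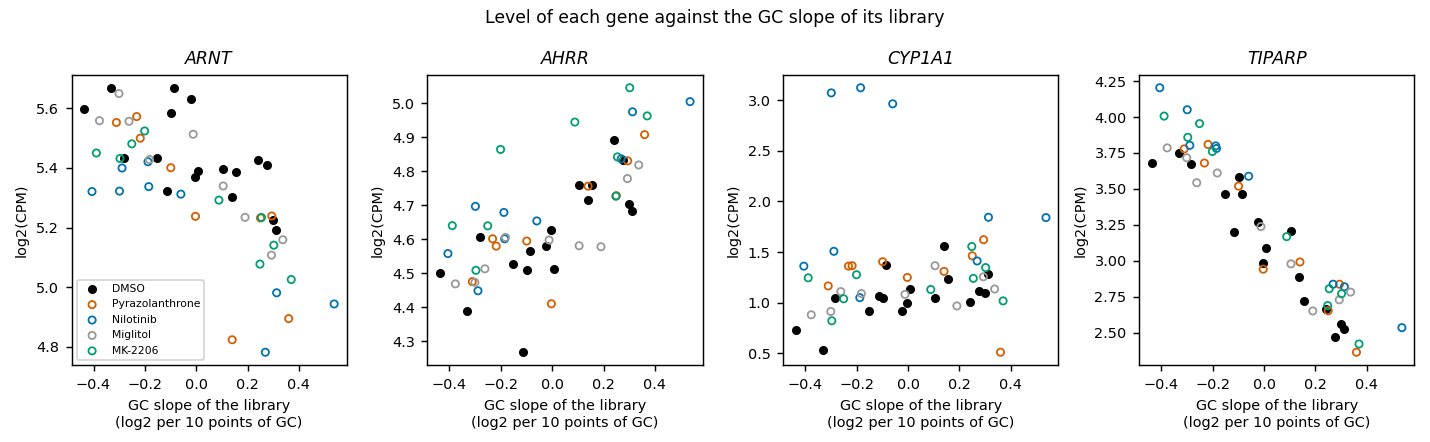
Level of ARNT, AHRR, CYP1A1 and TIPARP, as log2 CPM, against the GC slope of the library, in wells of at least 10000000 counts. DMSO wells are black and wells with pyrazolanthrone, nilotinib, miglitol or MK-2206 are open; TIPARP falls along the slope in DMSO wells (Pearson r = -0.943).

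CYP1B1, a P450 of the same family that also metabolises oestrogens, was close to 0 in most groups. The DMSO wells ran from 0 to 0.0488 CPM, and each dose of pyrazolanthrone gave 1 count over its 3 wells. Nilotinib at 10000 nM, which raised CYP1A1, gave 0 counts in its 3 wells, which allows up to 0.0252 CPM (3 counts in their summed depth, for counting error alone). With homoharringtonine CYP1B1 stood at 0.31, 0.061 and 0.14 CPM at 100 nM, 0.198, 0.24 and 0.35 CPM at 1000 nM and 0.362, 0.367 and 0.483 CPM at 10000 nM, and all 9 wells were above every DMSO well. In the fit without the filter on low counts the log2(Fold Change) was 3.24, 3.85 and 4.44 at 100, 1000 and 10000 nM (SE 0.76, 0.66 and 0.61, edgeR adjusted p = 0.000149, 1.03e-06 and 1.1e-08). The 8 counts with 100 nM triptolide all came from replicate 1. CYP1B1 also overlaps an antisense gene, CYP1B1-AS1.

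Pyrazolanthrone was compared directly with the other 5 compounds at matched doses, in 15 pairs from a fit of all 72 wells, with p-values adjusted over all genes tested in each pair. AHR and CYP1B1 passed the filter on low counts in that fit through the homoharringtonine wells. Against nilotinib 0 of the 6 genes differed at 100 nM (0.0% of all genes called) and at 1000 nM (0.0383%), and 1 differed at 10000 nM (3.96%). That gene was CYP1A1, at 2.49 against 8.31 CPM on average, a difference of -1.74 on the log2 scale (95% interval -2.17 to -1.31, edgeR adjusted p = 2.85e-08). TIPARP at that dose stood at 13.1 against 14.1 CPM, a difference of -0.11 with an interval from -0.87 to 0.65.

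Against miglitol none of the 6 genes was called at 100, 1000 or 10000 nM (0.0%, 0.0% and 1.45% of all genes), nor against MK-2206 (0.00479%, 0.0718% and 2.69%). The CYP1A1 difference from miglitol was 0.42 at 1000 nM (interval -0.02 to 0.86) and 0.35 at 10000 nM (interval -0.10 to 0.79). Against MK-2206 it was 0.34 at 1000 nM (interval -0.09 to 0.78) and -0.01 at 10000 nM (interval -0.45 to 0.43). These intervals leave room for differences of up to 0.86 on the log2 scale. By edgeR, no gene at all was called between pyrazolanthrone and nilotinib or miglitol at 100 nM, or miglitol at 1000 nM, beside 819, 1092 and 188 genes at an unadjusted p under 0.05, and no other tool was run on the pairs.

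Against triptolide 2, 4 and 4 of the 4 genes ARNT, AHRR, CYP1A1 and TIPARP were called, all higher with pyrazolanthrone, where 46.0%, 56.7% and 59.2% of all genes were called. CYP1B1 differed by -3.73 at 100 nM, but its counts with triptolide at that dose all came from replicate 1, and it is left out of this count. TIPARP at 10000 nM was 13.1 CPM with pyrazolanthrone against 0.112 CPM with triptolide, a difference of 6.79 on the log2 scale (SE 0.82, edgeR adjusted p = 8.06e-15). Against homoharringtonine 3 of the 4 genes ARNT, AHRR, CYP1A1 and TIPARP were called at each dose, where 54.5%, 59.4% and 60.8% of all genes were. CYP1A1 was lower with pyrazolanthrone by 2.54, 2.55 and 2.66 on the log2 scale at the 3 doses (edgeR adjusted p = 1.04e-14, 3.52e-15 and 7.72e-16), and TIPARP was also lower at each dose, by 2.93, 3.42 and 3.17.

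Trends over log10 dose were fitted in the 9 wells of each compound, and give the change per unit of log10 dose. With pyrazolanthrone 1 of 4 genes tested was called (18.6% of all genes), TIPARP at 0.41 (SE 0.12, edgeR adjusted p = 0.04). This trend was 0.12 (adjusted p = 0.441) with the GC slope as a covariate and was not called without replicate 2 (0.46, adjusted p = 0.193) or replicate 3 (0.38, adjusted p = 0.154), each of which left 0 genes called in all. The trend of TIPARP was called with the replicate number as a block (0.43, edgeR adjusted p = 0.0105) and without replicate 1 (0.45, edgeR adjusted p = 0.0293). CYP1A1 had a trend of 0.08 (SE 0.12, interval -0.19 to 0.35). ARNT, at 0.20 (adjusted p = 0.0675), was called at 0.26 (adjusted p = 0.0203) without replicate 1 and at 0.21 (adjusted p = 0.0263) with the block.

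With nilotinib CYP1A1 rose by 0.80 per unit of log10 dose (SE 0.17, edgeR adjusted p = 0.0284), 1 of 4 genes where 3.09% of all genes were called, and without replicate 2 or 3 at all doses the slope was 0.89 and 0.81 with adjusted p = 0.143 and 0.425, in fits that called 2 and 0 genes in all. With miglitol (15.9% of all genes) and MK-2206 (0.028%) none of the 4 genes was called. The TIPARP trend with miglitol was 0.33 (interval 0.08 to 0.58, adjusted p = 0.063), and it was called with the replicate number as a block (0.34, adjusted p = 0.043) and stood at -0.02 with the GC slope as a covariate. With triptolide (24.7%) TIPARP fell by 2.49 per unit of log10 dose (SE 0.38, edgeR adjusted p = 0.000345). With homoharringtonine (44.0%) TIPARP rose by 0.54, AHRR by 0.52 and ARNT by 0.43 (edgeR adjusted p = 0.0122, 0.00144 and 0.00113), while CYP1A1, at 0.15 (interval -0.02 to 0.32), was not called. AHR and CYP1B1 passed the filter on low counts in this trend fit alone, through the homoharringtonine wells. Their trends of 1.29 and 0.57 are therefore given without a call. The TIPARP trend with homoharringtonine was 0.58 and 0.45 without replicate 2 or 3 (adjusted p = 0.0728 and 0.0594).

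Around the receptor, 4 lists of pathway genes were examined. The cytosolic AHR complex includes the HSP90 chaperones HSP90AA1 and HSP90AB1, the co-chaperone PTGES3 and the kinase SRC. None of these was called with pyrazolanthrone at any dose (4.77%, 0.0% and 7.65% of all genes), and their log2(Fold Change) values lay between -0.22 (SRC, 10000 nM) and 0.26 (PTGES3, 100 nM), where the median of all genes was -0.02, -0.01 and 0.00 at the 3 doses. SRC fell by 0.38 with 10000 nM nilotinib (edgeR adjusted p = 0.0377) and by 2.60 with 10000 nM triptolide (edgeR adjusted p = 1.65e-13), where HSP90AB1 and HSP90AA1 were higher by 0.61 and 0.54 (edgeR adjusted p = 0.000183 and 0.0254). These are changes relative to the other genes under TMM scaling. The median of all genes with 10000 nM triptolide was -0.17 under that scaling and -2.92 under the mitochondrial scaling.

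Of the bHLH-PAS relatives, 8 transcription factors of the same family, 7 were tested and 0 called with any dose of pyrazolanthrone (4.77%, 0.0% and 7.65% of all genes). NPAS2, a circadian clock factor, rose by 0.58 with 10000 nM nilotinib and by 0.64 with 10000 nM MK-2206 (edgeR adjusted p = 0.000907 and 0.0012), the only relative called with either compound at that dose (14.4% and 3.15% of all genes). Homoharringtonine at 10000 nM raised 3, BMAL1 by 2.00, HIF1A by 1.68 and EPAS1 by 0.94, and lowered 3, NPAS2 by 1.73, SIM2 by 0.75 and ARNT2 by 0.45, where 36.7% of all genes were called higher and 37.2% lower. HIF1A and EPAS1 are the hypoxia factors, which also pair with ARNT.

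The AHR coregulators, 10 genes that bind the receptor or act with it on chromatin, held 2 called genes with 100 nM pyrazolanthrone, 1 higher and 1 lower, where 3.2% of all genes were called higher and 1.56% lower. KLF6, a zinc finger factor that can partner AHR, rose from a DMSO mean of 20.9 CPM to 27.5 CPM, a log2(Fold Change) of 0.43 (edgeR adjusted p = 0.00688), with all 3 wells above DMSO. NCOA2, a nuclear receptor coactivator, fell from 45.1 to 34.5 CPM, by 0.36 (edgeR adjusted p = 0.0246), with 1 of 3 wells below DMSO. At 1000 and 10000 nM pyrazolanthrone 0 of 10 were called (0.0% and 7.65% of all genes). KLF6 was also higher at all 3 doses of nilotinib, up to 1.28, and of MK-2206, up to 1.05. Triptolide at 10000 nM lowered 7 of the 10, KLF6 by 5.32, NRIP1 by 4.62, EP300 by 3.13 and CREBBP by 2.63 among them, and homoharringtonine at that dose raised 6 and lowered 3. Of all genes, 39.7% were called lower with triptolide at that dose, and 36.7% higher and 37.2% lower with homoharringtonine.

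The list of other AHR-induced genes held 18 genes, of which 10 or 11 passed the filter on low counts in each comparison. CYP1A2, UGT1A1, UGT1A6, GSTA1, GSTA2, IDO1 and VAV3 were at 0.0294 TPM or less in DMSO wells. At 100 nM pyrazolanthrone 1 of 11 rose, SLC7A5, and 0 fell, where 3.2% of all genes were called higher and 1.56% lower. At 1000 nM 0 of 10 were called (0.0% of all genes). At 10000 nM 3 of 10 rose and 0 fell, where 3.35% of all genes were called higher, and the median of the list was 0.43 against 0.00 for all genes.

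Those 3 genes were EREG, SLC7A5 and NQO1. EREG, a growth factor of the EGF family, rose from 1.15 ± 0.417 CPM (SD, n = 18) to 2.99 ± 0.487 CPM (n = 3), a log2(Fold Change) of 1.26 (edgeR adjusted p = 0.000266). SLC7A5, a transporter of large neutral amino acids, rose from 1224 ± 152 to 1932 ± 131 CPM, by 0.62 (edgeR adjusted p = 0.000181). SLC7A5 was also called at 100 nM, at 0.42 (edgeR adjusted p = 0.0243), but not at 1000 nM, where 0 genes were called in all. NQO1, a quinone reductase that is also a target of NFE2L2, rose from 186 ± 31.6 to 260 ± 11.7 CPM, by 0.44 (edgeR adjusted p = 0.0267). In all 3 genes the wells with 10000 nM pyrazolanthrone stood above every DMSO well, and with the GC slope as a covariate the changes were 1.11, 0.70 and 0.38 (adjusted p = 0.000381, 5.45e-06 and 0.0322).

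With 10000 nM nilotinib, SERPINB2, a protease inhibitor, rose by 4.23 and EREG by 1.47, and the cell cycle inhibitor CDKN1B fell by 0.38, out of 11 tested. Of all genes, 7.97% were called higher and 6.39% lower there. Homoharringtonine at 10000 nM raised 5 of 11, with EREG at 2.82, SCIN at 1.55, NFE2L2 at 0.92 and HES1 at 0.88, and lowered 3, SLC7A5 by 2.43, NQO1 by 1.02 and CDKN1B by 0.80, beside 36.7% of all genes called higher and 37.2% lower. Its changes in SLC7A5 and NQO1 thus had the opposite sign to those with 10000 nM pyrazolanthrone, and each was called against DMSO. MK-2206 raised HES1 by 0.75 and 0.79 at 1000 and 10000 nM, where 1.2% and 2.21% of all genes were called higher. Miglitol changed none of the 11 (0.0% of all genes at each dose).

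**Figure D4:**
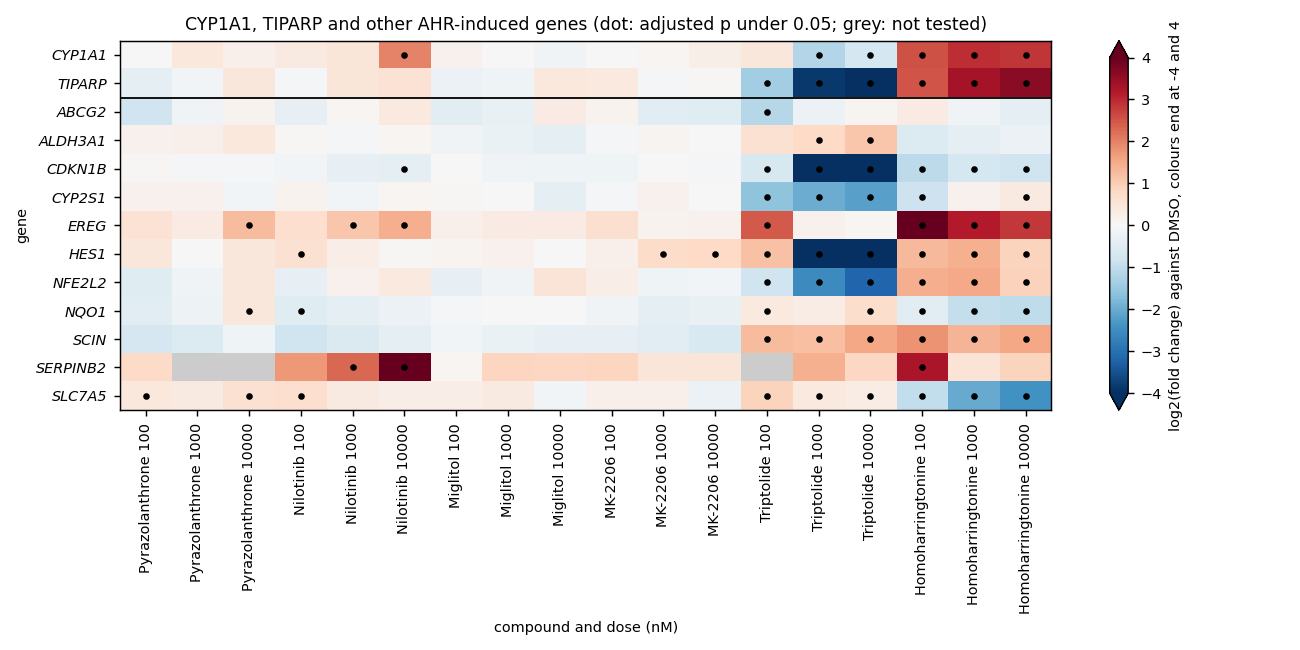
Heat map of log2(Fold Change) against DMSO of CYP1A1, TIPARP and the 11 other AHR-induced genes that could be tested, in the 18 comparisons of compound and dose in nM. With 10000 nM pyrazolanthrone EREG, SLC7A5 and NQO1 were called higher while CYP1A1 and TIPARP were not.

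The genes that rose most with 10000 nM pyrazolanthrone were others. Among 398 genes called higher with a mean of at least 1 CPM and all 3 wells above DMSO, the largest rises were those of ANKFN1 (log2(Fold Change) 2.10), TM6SF1 (2.09), DDIT4 (2.06), HAS2 (2.02) and SPNS3 (2.01). DDIT4, a stress-induced inhibitor of mTORC1 signalling, went from 54.9 ± 6.75 CPM in DMSO wells (SD, n = 18) to 233 ± 2.66 CPM (n = 3, edgeR adjusted p = 1.28e-13). HAS2, a hyaluronan synthase, rose from 0.711 to 3.17 CPM on average.

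The genes whose mean log2(CPM + 1) followed CYP1A1 most closely over the 19 groups were TNFAIP3, TRAF1 and RELB, with Pearson correlations of 0.989, 0.977 and 0.976. All 3 are known as targets of NF-kappaB, and TNFAIP3 averaged 7.78 CPM in DMSO wells, 5.42 CPM with 10000 nM pyrazolanthrone, 43.0 CPM with 10000 nM nilotinib and 384 CPM with 10000 nM homoharringtonine. Over the 13 groups without triptolide and homoharringtonine the closest genes were NCF4, TNFAIP3 and CYB5R2, at 0.984, 0.970 and 0.969. Among these groups CYP1A1 was called against DMSO only with 10000 nM nilotinib, so that these correlations lean on that group of 3 wells. There NCF4 and CYB5R2 averaged 3.67 and 3.16 CPM, against 0.219 and 0.248 CPM in DMSO wells. CYP1B1 was followed by DNAH12, GBP6 and MAGEB3 over 19 groups, at 0.991, 0.991 and 0.987, all 3 near 0 CPM except with homoharringtonine. Over the 13 groups, where CYP1B1 was itself near 0, the highest values were 0.798 for MS4A4E, 0.788 for the gene ENSG00000276302, which has no symbol in the annotation, and 0.779 for KRT33A. Groups share their DMSO baseline and these values are descriptions over group means.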

How the data were processed

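Population RNA-seq of 72 wells was analysed. The authors made the libraries from poly(A) RNA with a stranded TruSeq kit and processed them with RSEM on GRCh38. The submitters' notes also name HTSeq and DESeq2, and the tool versions, the annotation and the strand setting are not given in the sources used here. For each gene the authors deposited an expected count, the number of reads RSEM assigned to it, without normalization. The TPM values in the deposited tables, per length and per library total, served only for levels between genes. The deposited FPKM values were not used. Groups, doses and replicate numbers came from the sample labels, which give the middle dose as 1000 nM. The methods text differs on that dose.

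Expected counts were rounded and tested with edgeR 4.0.16 in R 4.3.3: TMM factors, filterByExpr with a minimum count of 10, the quasi-likelihood test and Benjamini-Hochberg adjustment over all genes tested. Intervals are 95% Wald intervals. Each compound and dose was fitted with the 18 DMSO wells, the pairs in a fit of all 72 wells, and dose trends in the 9 wells of a compound. Lists were described by counts and medians, without a list test. Correlations across wells used 100000 permutations and scipy 1.17.1. The methods were tested on simulated data: for 3 against 18 wells, edgeR recovered 185 of 200 genes changed by 1 on the log2 scale, with 8 false calls among 15139 genes. DESeq2 recovered 188, the dose trend 190 and the replicate block 149. The simulated counts were independent, with a set spread and no GC slope, so that these rates may not hold for the real wells.

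Symbols and positions came from GENCODE release 44, which held 56104 of 60371 gene identifiers, and promoters from RefSeq (GRCh38.p14). PDCD6-AHRR, a read-through transcript over AHRR, was not analysed here. A member of the pathway lists is not reported here. Alternatives comprised DESeq2 1.42.0, other scalings (among them the 13 mitochondrially encoded mRNAs), other filters, left-out wells and a replicate block. The genes and lists were chosen with earlier results of these data known. Named genes were the 6 members, called list genes (with pyrazolanthrone all, elsewhere up to 4 a list by size of change, with a few more, chosen after their values were seen, to complete a count), the 5 largest rises with 10000 nM pyrazolanthrone, and the 3 genes most correlated with CYP1A1 and with CYP1B1.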

Additional observations from a re-analysis of the deposited data

How the results depend on the processing

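Of 74 changes against DMSO in the 6 genes, 25 were called, and of 1011 values under alternatives 898 kept direction and side of the threshold, 17 became called, 10 were lost and 86 changed sign. Of these, 83 were called neither before nor after, and 3 were called on 1 side, all with scaling to the mitochondrially encoded mRNAs: CYP1A1 with 100 nM triptolide (-1.27, from 0.45), ARNT with 100 nM nilotinib (0.052) and AHRR with 10000 nM nilotinib (-0.69). That scaling moved the median change of all genes to -1.81, -2.68 and -2.92 with triptolide, to 0.40, 0.11 and -0.68 with nilotinib and to 0.23, 0.33 and -0.38 with pyrazolanthrone. The cause was not tested.

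The number of the genes called over 3 doses was 1 with pyrazolanthrone, and 0 with the mitochondrial scaling and 0 to 1 without 1 replicate. It was 2 with nilotinib, and 1 without a filter on low counts, 1 with at least 10 counts in every well, 4 with the GC slope as a covariate and 1 to 3 without 1 replicate. The stricter filter, which tests fewer genes, left 4 of 11 calls with triptolide and 6 of 11 with homoharringtonine, where it added ARNT at 100 nM (-0.30) to give 7. The 11 with homoharringtonine include AHR and CYP1B1 at 10000 nM, which passed the main filter only through the treated wells. CYP1A1 with 100 nM nilotinib ran from 0.17 to 0.59 without 1 replicate, and with 100 nM triptolide from -0.35 to 0.88. With 1000 nM nilotinib and the GC slope it was 0.57. Replicates were left out of the treated wells only.

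Residuals of wells with the same replicate number correlated at -0.0548 on average over 48 pairs, from -0.724 to 0.631, 19 of them over 0.1, against 0.0271 for different numbers. An average near 0 does not decide whether wells were paired within some compounds. At 1000 nM the GC slopes of replicates 1 and 2 were -0.232 and 0.294 with pyrazolanthrone, -0.406 and 0.313 with nilotinib and -0.182 and 0.337 with miglitol. MK-2206, triptolide and homoharringtonine had the opposite order at that dose. DMSO replicates 1 to 3, the only controls in the block, had GC slopes of 0.276, -0.00577 and 0.31. Whether these slopes moved the TIPARP values under the block was not tested. With the number as a block and DMSO replicates 1 to 3, 2 genes were called with miglitol in place of 0, TIPARP at 10000 nM (0.96) and AHRR (-0.28), in a fit that called 8100 of 17478 genes in all where the other called 0. TIPARP with 10000 nM nilotinib stood at 1.11 (adjusted p = 0.00471). CYP1A1 with 1000 nM triptolide stood at -1.36 (adjusted p = 0.0748), TIPARP with 10000 nM pyrazolanthrone at 0.96 (adjusted p = 0.0031) and ARNT with 100 nM pyrazolanthrone at -0.34 (adjusted p = 0.413). Over all genes, the 878 calls with 100 nM pyrazolanthrone ran from 10 (block) to 2173 (GC slope), the 1415 with 10000 nM from 234 (mitochondrial scaling) to 5949 (block), and the 2674 with 10000 nM nilotinib from 1211 (without replicate 1) to 9940 (mitochondrial scaling). The GC slope and the exclusion of DMSO replicate 10 were chosen after seeing the data. That exclusion gave the same fit as leaving out libraries under 10000000 counts, except with 100 and 1000 nM triptolide. Both settings are among the 1011 values.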
